A study of Mus musculus with 8 samples.

Results

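Aerocytes are one of the 2 capillary endothelial cell types of the alveolus, and they were taken here as every cell that the study's deposited annotation labelled capillary A endothelium. There were 4240 such cells among the 41106 cells of the series, and they stood beside 9988 general capillary cells (gCap, labelled capillary B), 730 arterial and 1665 venous endothelial cells. The data were single-cell RNA sequencing of lung cells from 8 C57BL/6 mice that all carried the alleles Sftpc-CreERT2 and Rosa26-mTmG and had been given tamoxifen at 8 to 10 weeks of age, at 150 mg/kg on 4 days. From 2 weeks later, 4 littermates breathed smoke of 3R4F research cigarettes for 6 h a day on 5 days a week over 10 months (the CS mice C2, C5, D2 and D5) and 4 breathed room air (the RA mice F1, F3, M1 and M3). The Cre is driven by the surfactant protein C promoter of alveolar type 2 cells. Transcripts counted as the reporter eGFP averaged 71.2 per 10,000 in alveolar type 2 cells, 3.43 in aerocytes, 5.73 in gCap cells and 0.447 in B cells, and in aerocytes they were 3.01 to 4.01 in CS and 2.68 to 3.84 in RA mice. The right lung of each mouse was digested for 45 min at 37 °C, and CD45-negative and CD45-positive cells were mixed in a 90% to 10% ratio before loading. The labels give each library a lane number, and each number is shared by 1 CS and 1 RA library (lane 1 C2 and F1, lane 2 D2 and F3, lane 3 C5 and M1, lane 4 D5 and M3). That libraries of 1 number were sequenced together is assumed from the usual form of such labels, and every value given with the lane as a block or counted over lanes rests on it.

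Aerocytes are large, thin capillary cells that lie against the alveolar epithelium, and their thin sheets form much of the barrier across which oxygen and carbon dioxide pass. gCap cells make up the rest of the capillary mesh and serve as its progenitors in maintenance and repair. Carbonic anhydrase 4 (Car4) is a membrane enzyme that interconverts bicarbonate and carbon dioxide at the capillary surface, endothelin receptor type B (Ednrb) takes up endothelin and couples to nitric oxide release, and Tbx2 is a T-box transcription factor.

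The CS mice gave 417, 554, 620 and 754 aerocytes (C2, C5, D2, D5) and the RA mice 616, 680, 350 and 249 (F1, F3, M1, M3). The median number of transcripts per aerocyte was 4026 to 6644 in CS and 3991 to 5971 in RA mice, and neither this (exact permutation over mice, two-sided p = 0.629, n = 4 against 4) nor the genes per cell (exact p = 0.83) nor the mitochondrial percentage (exact p = 0.83) differed by more than the mice of a group did. With 4 mice against 4 the smallest p this test can give is 0.0286. Of the barcodes carried by aerocytes, 2 occurred in more than 1 library. The sex labels went against the transcripts in 4 of 4 CS libraries and in 0 of 4 RA libraries: Xist was 7.43 and 7.33 per 10,000 in the aerocytes of C2 and C5, which are labelled male, and Ddx3y was 1.06 and 1.2 in those of D2 and D5, which are labelled female. Either way each group held 2 libraries with Xist (C2 and C5 in CS, F1 and F3 in RA) and 2 with Ddx3y, and no test below uses sex.

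All levels below are transcripts per 10,000 of a cell's total, averaged over the aerocytes of a mouse. Car4 (chromosome 11, 84957786 to 84966044, GRCm38) was 26.3, 25.9, 25.5 and 24.0 in C2, C5, D2 and D5 and 27.7, 29.6, 30.1 and 31.3 in F1, F3, M1 and M3. Ednrb (chromosome 14, 103814625 to 103844402) was 16.9, 17.5, 16.3 and 18 in the CS mice and 9.53, 13.8, 17.0 and 16 in the RA mice. Tbx2 (chromosome 11, 85832551 to 85841948) was 9.71, 9.32, 8.06 and 7.72 in the CS mice and 7.21, 7.56, 8.19 and 8.50 in the RA mice. Every library's aerocytes therefore carried all 3 markers at levels far above those of gCap cells, whose per-mouse levels were 1.08 to 1.85 for Car4, 0.0305 to 0.0767 for Ednrb and 0.0965 to 0.169 for Tbx2.

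After each cell was thinned to 2000 transcripts, Car4 was found in 98.4% of aerocytes (Wilson 95% interval 97.9 to 98.7, counting error only), 22.6% of gCap cells and 2.04% of B cells, a type that should lack it. Ednrb was found in 90.9% of aerocytes, 1.02% of gCap cells and 1.17% of B cells, and Tbx2 in 77.8%, 2.64% and 0.972%. Thinning left out 301 aerocytes, 896 gCap and 277 B cells with fewer transcripts, and unthinned the shares of aerocytes were 99.4%, 95.9% and 92.4% at a median of 4623 transcripts per cell (3833 in gCap and 4055 in B cells). The gCap share for Ednrb lies at the B cell level, so it reads as background. The Car4 share in gCap cells lies above it.

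Among all annotated cell types, the mean over cells of Car4 was highest in aerocytes (27.1) and next in alveolar macrophages (6.40), and that of Ednrb was 15.5 in aerocytes and 0.854 in smooth muscle cells, the next type. Tbx2 was not highest in aerocytes by this measure: pericytes, which wrap the capillary, had 12.3 against 8.16. Of the other markers chosen for the type, Fibin, Apln, Chst1, Prx, Kitl and Cyp4b1 were highest in aerocytes among 23 types with a value in enough mice. Pericytes and smooth muscle cells are not among these types. Emp2, Clec14a and Nckap5 went against the role. Emp2 was higher in alveolar type 1 cells (43.2 against 35.9), aerocytes ranked 4 of 23 for Clec14a, and Nckap5 was 30.7 in gCap cells and 8.59 in aerocytes.

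**Figure D1:**
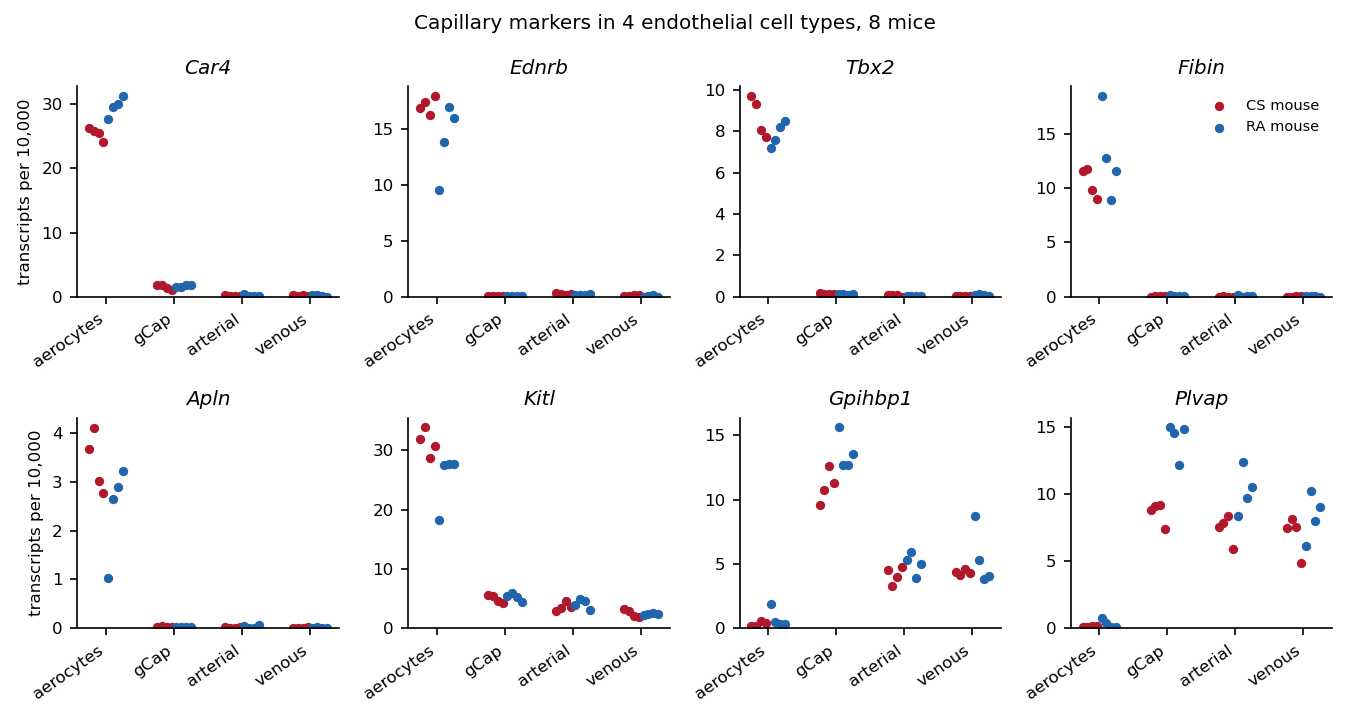
The aerocyte markers Car4, Ednrb, Tbx2, Fibin, Apln and Kitl and the gCap markers Gpihbp1 and Plvap in 4 blood vessel endothelial types, plotted as the mean transcripts per 10,000 of each mouse (points; CS red, RA blue) on linear axes from 0. All 8 mice have aerocyte levels of Car4 between 24.0 and 31.3, above the 1.08 to 1.85 of gCap cells.

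Set against gCap cells of the same mice, aerocytes carried more of 848 and less of 906 genes in 8 of 8 mice, among 2570 genes with a mean of at least 1 in either type. The annotation rests on clustering of these same cells, so this is a description with no test. The secreted binding protein Igfbp7 was 53.9 ± 8.14 in aerocytes and 1.44 ± 0.535 in gCap cells (SD, n = 8 mice), and the tetraspan membrane protein Emp2 35.9 ± 5.94 and 0.620 ± 0.185. Kdr, the main VEGF receptor of endothelium, was 25.4 ± 5.28 and 2.58 ± 0.437. In the other direction, Ptprb, a phosphatase that dampens Tie2, was 0.530 ± 0.254 in aerocytes and 26.2 ± 4.15 in gCap cells. Plvap, which forms the diaphragms of caveolae, was 0.238 ± 0.233 and 11.4 ± 3.13, and Gpihbp1, the capillary anchor of lipoprotein lipase, 0.545 ± 0.551 and 12.3 ± 1.84. Each of these genes differed in the same direction in all 8 mice.

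Most markers of other cells were low. The 6 fibroblast markers summed to at most 0.356 and the 6 mural markers to at most 0.169 per 10,000 in any mouse, and the 11 immune markers to 0.410 to 0.774 in CS and 0.193 to 1.49 in RA mice. The sum of 6 alveolar type 1 markers was 16.9 to 18.2 in CS and 17.2 to 22.3 in RA mice, but Hopx and Clic5 made up nearly all of it and Ager stayed at or below 0.390. The haemoglobin transcript Hbb-bs was 1.08 to 10.8 in CS and 0.369 to 15.2 in RA mice, so the groups overlapped. Scgb1a1, the secretoglobin of club cells, was not low in each mouse: it was 0.767, 3.60, 22.1 and 17.2 in C2, C5, D2 and D5 and 3.57, 8.72, 4.87 and 0 in F1, F3, M1 and M3. Its mean over mice was 7.61 in aerocytes, 9.33 in gCap cells and 13.5 in B cells, beside 3986 in club cells, and its part in the results was not tested. The 10 gCap markers summed to 26.0 to 35.2 in CS and 33.0 to 52.5 in RA mice, but Ly6c1 made up nearly all of it and was higher in aerocytes (32.8 ± 6.85, SD, n = 8 mice) than in gCap cells (11.3 ± 4.81). The other 9 summed to 1.14 to 2.41 in CS and 1.56 to 5.85 in RA mice, the highest in F1.

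The study's own clustering had split aerocytes into a larger cluster of 3358 cells and a smaller one of 882. Their median transcripts per cell were 4376 and 5700. Among the genes that led the smaller cluster were the inducible heat shock gene Hspa1a (17.1 against 1.27), Ier3 (27.5 against 3.47), Atf3 (8.17 against 0.448), Junb (21.4 against 2.86), Egr1 (10.7 against 1.11) and Fos (11.1 against 1.41). These genes belong to the immediate and heat shock responses of many cells, and all 17 tested members of the immediate-early list were higher in the smaller cluster, with a median log2 difference of 1.29. Of 9 semaphorin and plexin genes, 1 was higher there and the median was −0.56. Of 12 aerocyte markers 1 was higher there (median −0.23), as were 0 of 11 general endothelial markers (median −0.38). Of 4 tested gCap markers 3 were higher (median 0.53), Ptprb being 1.96 against 0.189. Transcripts counted as eGFP were 7.68 against 2.47. Such genes define the clusters and are no test. Counts of list members higher in the smaller cluster, here and below, are given without the share over all genes. They therefore do not tell a shift of a list from a general one. The smaller cluster took 17.7, 12.5, 17.1 and 14.7% of the aerocytes of C2, C5, D2 and D5 and 41.6, 28.8, 10.0 and 14.1% of those of F1, F3, M1 and M3. F1 and F3 stood apart from the other 6 mice, so results were also computed in the larger cluster alone, an alternative chosen after seeing the data.

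The first question of the design was whether the aerocyte fraction differed after smoke. Aerocytes made up 31.4, 32.1, 22.6 and 27.4% of blood vessel endothelial cells in C2, C5, D2 and D5 and 20.1, 25.7, 22.1 and 32% in F1, F3, M1 and M3. The groups overlapped. The means with their SDs over 4 mice were 28.4% ± 4.35 for CS and 25% ± 5.22 for RA, and the difference of 3.4 percentage points was within that spread (exact permutation test, two-sided, p = 0.314; higher in 2 of 4 lanes). Of the cells of CD45-negative types, aerocytes were 18.5, 14.1, 13.8 and 17.1% in the CS and 11.1, 13.5, 9.64 and 15.6% in the RA mice. This share was higher in CS in 4 of 4 lanes, 15.9% ± 2.26 against 12.5% ± 2.63, again without passing the test (exact p = 0.114, and 0.125, the smallest value possible, for the exact sign-flip test within lanes).

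**Figure D2:**
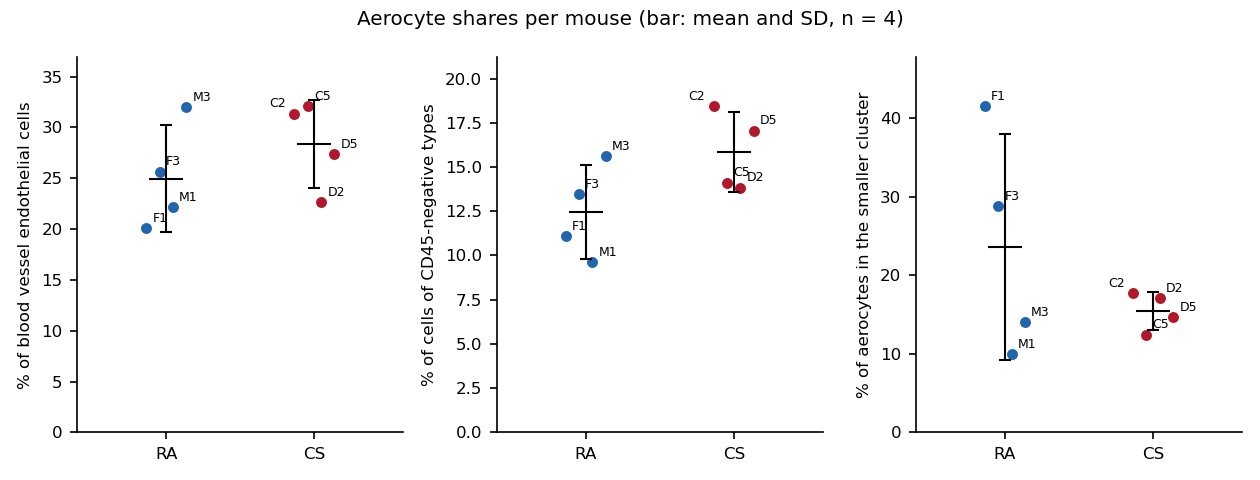
Aerocytes as a percentage of blood vessel endothelial cells and of cells of CD45-negative types, and the percentage of aerocytes in the smaller cluster, for each mouse (points, labelled by mouse; bars mark the mean and SD of 4 mice). CS and RA mice overlap in each panel, and F1 and F3 hold the highest shares of the smaller cluster, 41.6% and 28.8%.

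For expression, limma was fitted to log2 of the mouse mean plus 1 over the 6876 genes found in at least 10% of the aerocytes of either group. At an adjusted p under 0.05 (Benjamini-Hochberg), 67 genes were higher in CS aerocytes (0.974% of those tested) and 68 were lower (0.989%), while 1684 (24.5%) had an unadjusted p under 0.05 and the median log2 difference of all genes was 0.00. The genes that fell were led by protein chaperones of the cytosol and the endoplasmic reticulum (ER). Those that rose were a mixed group with the clock repressor Nr1d1, the xenobiotic enzyme Ephx1, the semaphorin Sema6d and several genes of long span. In 134 of the 135 the CS and RA mice did not overlap, which also held for 599 genes above (8.71%) and 488 below (7.1%) among all tested.

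These counts moved with single mice. Without C2, C5, D2, D5, F3 or M3, 14, 12, 28, 18, 34 and 19 genes passed, whereas 195 passed without F1 and 408 without M1. With the lane as a block 33 genes were higher and 31 lower. In the larger cluster alone 98 were higher (1.43%) and 111 lower (1.61%), and 124 of the 135 genes were among them. Of the 41 genes named here that passed in aerocytes, 24 lost the call when genes in at least 1% of cells were tested, 16 with 249 aerocytes per mouse, 15 with the lane block, 9 without the 10% of aerocytes richest in markers of non-endothelial cells, 9 with both clusters given equal weight and 4 with a pseudocount of 0.1. Genes that passed with each of the 8 mice left out numbered 11, among them Ephx1 and 2210408I21Rik, which rose, and Hsp90ab1, Hspa8, Stip1, Ahsa1, Ahsa2, Cacybp, Pdia6 and Gm6210, which fell.

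The constitutive cytosolic chaperones fold newly made and signalling proteins in cycles of ATP binding that co-chaperones set in motion. Hsp90ab1, the constitutive form of HSP90 (chromosome 17, 45567775 to 45573271), was 7.07, 6.97, 8.27 and 6.31 in C2, C5, D2 and D5 and 26.1, 16.3, 15.7 and 22.9 in F1, F3, M1 and M3. All 4 CS mice were far below all 4 RA mice, at 0.354 of the RA mean (log2 difference −1.36, SE 0.163, adjusted p = 0.00673 by limma). Hspa8, the constitutive HSC70 (chromosome 9, 40800984 to 40810087), was 3.81, 2.89, 4.28 and 2.97 in CS and 7.44, 8.48, 6.80 and 8.46 in RA mice, which gave 0.447 of the RA level (log2 −0.98, SE 0.122, adjusted p = 0.00673). Both kept their call in every alternative computed.

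The small heat shock protein Hspb1 was 5.45, 5.24, 6.39 and 5.08 in CS and 30.2, 11.2, 13.3 and 23.4 in RA mice. The RA mice spread widely, F1 highest, yet none came down to the CS range (log2 −1.55, SE 0.252, adjusted p = 0.0203), and the call was lost without C2, C5, D5 or M3 (adjusted p 0.0612 to 0.0835). Hsp90aa1, the inducible HSP90, was 1.58, 1.84, 1.85 and 1.70 in CS and 5.88, 3.2, 2.57 and 3.79 in RA mice (log2 −0.78, adjusted p = 0.037, 0.0601 with the lane as a block). Its call was lost without any 1 CS mouse, F3 or M3 (0.0715 to 0.123), and it was also higher in the smaller cluster, 6.91 against 1.80. In the larger cluster alone its adjusted p was 0.00585, whereas with both clusters given equal weight the difference was −0.41 and the adjusted p 0.0947. It was 0.0519 without the aerocytes richest in non-endothelial markers and 0.0609 with genes in at least 1% of cells.

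Co-chaperones of HSP90 and HSC70 fell as well. Stip1, which hands clients from HSC70 to HSP90, was 0.369, 0.317, 0.387 and 0.348 in CS and 1.02, 0.656, 0.843 and 1.08 in RA mice (log2 −0.48, SE 0.0651, adjusted p = 0.00673). Ahsa1, the activator of the HSP90 ATPase, was 0.445, 0.452, 0.508 and 0.465 in CS and 1.06, 0.824, 0.982 and 0.990 in RA mice (log2 −0.42, SE 0.0471, adjusted p = 0.00594). The CS mice lay within a narrow band in both, and the calls held with each mouse left out. Dnaja1, the J-domain partner of HSC70, fell to 0.569 of the RA level (adjusted p = 0.0136, lost without C5 or D5, 0.0624 to 0.07). With both clusters given equal weight the log2 difference of Dnaja1 went from −0.52 to −0.30 and the call was lost (0.0973), as was that of Ptges3 (0.0536). The immunophilin Fkbp4 fell to 0.405 (adjusted p = 0.0203, lost without C2, C5, D5 or M3). Ptges3, the co-chaperone p23, fell to 0.674 (0.036, 0.059 with the lane block) and Hspe1, the mitochondrial chaperonin lid, to 0.532 (0.0287), and both lost the call without any 1 CS mouse or M3, Ptges3 also without F3.

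In total 10 of the 22 cytosolic and mitochondrial chaperone genes fell and 0 rose, with a median log2 difference of −0.24 beside 0.00 over all genes. The count was 8 with the lane block, 11 in the larger cluster alone, 11 without F1 and between 4 and 11 over the mice left out (4 without C5 or D5, 5 without C2 or M3). Of the 22 genes 21 were higher in the smaller cluster (median log2 difference 0.45), which held 41.6 and 28.8% of the aerocytes of the RA mice F1 and F3. With both clusters given equal weight 7 fell, 0 rose and the median was −0.17. The list was drawn up with results of these data known, so its count is not independent evidence of the direction. In gCap cells of the same mice, 10 of 22 fell and 0 rose, where 3.97% of all genes tested were lower, beside 0.989% in aerocytes. Hsp90ab1 differed there by −1.11 (adjusted p = 0.0113), Hspa8 by −0.96 (0.0113), Stip1 by −0.24 (0.0319) and Ahsa1 by −0.21 (0.0227).

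**Figure D3:**
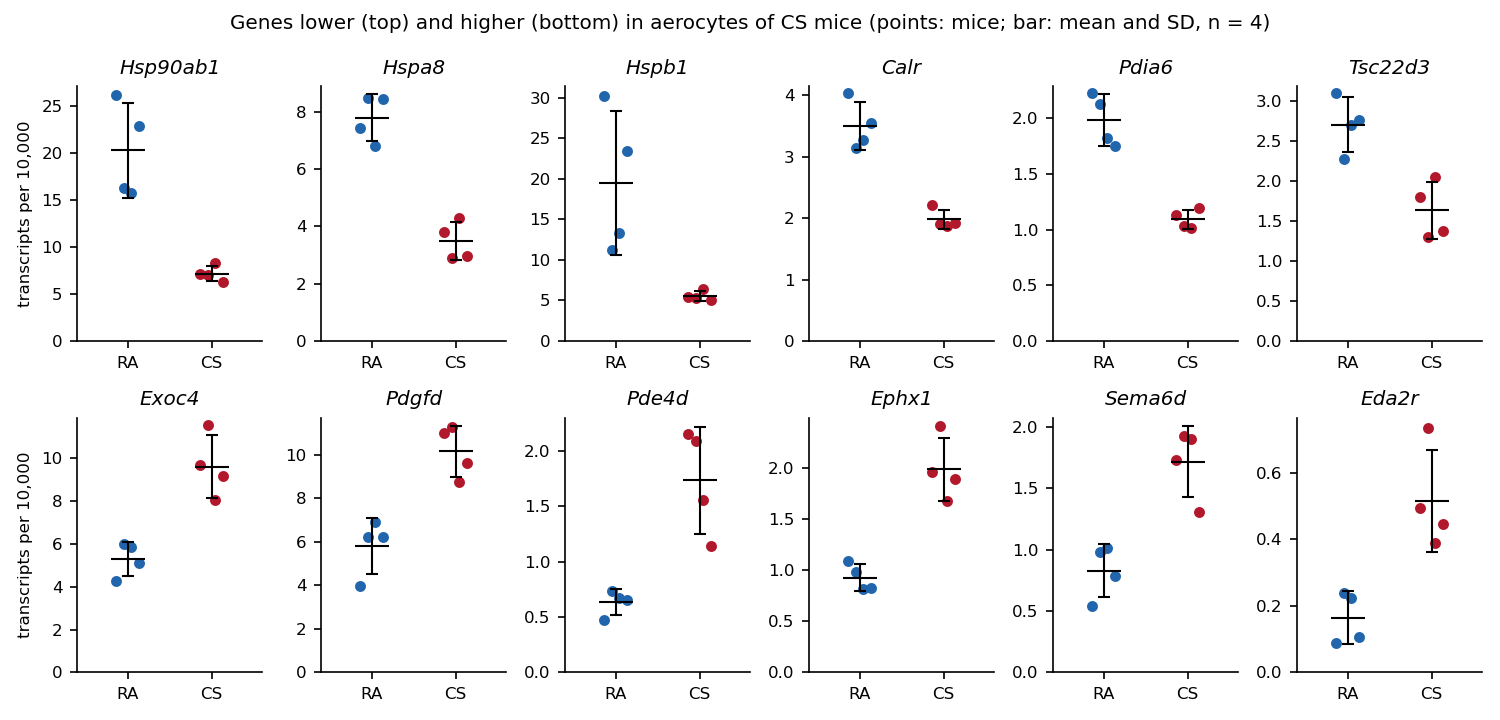
Levels in the aerocytes of each mouse (points, transcripts per 10,000; bars mark the mean and SD of 4 mice) for 6 genes that fell in CS (top) and 6 that rose (bottom). For Hsp90ab1 and Hspa8 the 4 CS mice lie between 2.89 and 8.27 with every RA mouse of the same gene above them, and for Ephx1 all CS mice lie above all RA mice.

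Chaperones of the ER bind calcium and fold secreted and membrane proteins, and many are raised together when unfolded protein builds up in the ER. Calr, the calcium-binding lectin chaperone, was 2.21, 1.90, 1.88 and 1.92 in CS and 4.04, 3.15, 3.27 and 3.54 in RA mice (log2 −0.59, SE 0.0827, adjusted p = 0.00829, 0.0556 without C5). Pdia6, a protein disulfide isomerase, was 1.13, 1.03, 1.01 and 1.19 in CS and 2.23, 2.13, 1.82 and 1.75 in RA mice (log2 −0.51, SE 0.0683, adjusted p = 0.00673, kept with each mouse left out). In both genes the CS mice were tightly grouped below all RA mice. Manf, a secreted ER stress protein, fell to 0.597 of the RA level (adjusted p = 0.0194, lost without C2, C5 or D5), Dnajc3, the co-chaperone that restrains the kinase PERK, to 0.693 (0.0358, 0.0505 with the lane block) and Creld2 to 0.530 (0.036). The last 2 lost the call without any 1 CS mouse, F3 or M3.

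Hspa5, the master ER chaperone BiP, was 3.13, 3.27, 3.09 and 3.0 in CS and 6.94, 6.05, 3.71 and 4.60 in RA mice. The groups did not overlap, but the spread of the RA mice left its adjusted p at 0.0594. It passed in the larger cluster (0.0283), without F1 (0.0453) and without M1 (0.0171). Altogether 5 of 17 tested ER chaperone genes fell, 0 rose and the log2 differences of all 17 were below 0 (median −0.24), beside 0.989% of all genes lower and an overall median of 0.00. The count was 4 with the lane block, 8 in the larger cluster and 1 to 8 over the mice left out, lowest without C5 and highest without M1. In gCap cells of the same mice 10 of 17 fell and 0 rose, where 3.97% of all genes tested were lower.

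Promoters of both chaperone lists were searched, for the genes that fell and for those that did not pass. The ER stress element, the letters CCAAT and CCACG with 9 bases of any kind between them, searched on both strands in the 300 bases from 250 before to 50 after each start (RefSeq, GRCm38.p6), was present in 39 of 32851 promoters, or 0.119%. Of the ER chaperone genes tested, 4 of the 4 that fell and had a promoter in the table held it (Calr, Pdia6, Dnajc3 and Creld2), as did 3 of the 12 that did not pass (Hspa5, Hsp90b1 and Canx). The stretches of the 4 genes and of Hspa5 are shown on the strand of the gene, 5′ to 3′, with the element in capitals and 10 flanking bases on each side.
Calr, chr8:84847065-84847103, minus strand: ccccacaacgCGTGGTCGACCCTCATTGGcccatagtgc
Pdia6, chr12:17266481-17266519, plus strand: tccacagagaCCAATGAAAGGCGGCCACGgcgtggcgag
Dnajc3, chr14:118937817-118937855, plus strand: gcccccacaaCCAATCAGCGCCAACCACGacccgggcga
Creld2, chr15:88819510-88819548, plus strand: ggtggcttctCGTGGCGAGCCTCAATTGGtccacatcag
Hspa5, chr2:34772015-34772053, plus strand: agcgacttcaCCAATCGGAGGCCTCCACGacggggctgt
In Calr and Creld2 the element lies on the opposite strand, and it begins 162, 98, 105, 126 and 65 bases before the start in Calr, Pdia6, Dnajc3, Creld2 and Hspa5. The match describes these letters and neither a bound site nor a cause.

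The heat shock element, the letters GAA, TTC and GAA in this order with 2 bases of any kind between neighbours, searched in the same way, was present in 198 promoters (0.603%). Among the cytosolic list it was found in 1 of the 7 genes that fell and had a promoter in the table (Hspe1) and in 4 of 11 that did not pass (Hspd1, Dnajb6, Hsph1 and Chordc1). A shorter form, GAA and TTC with 2 bases between them, was present in 7.86% of all promoters. It was found in 11 of the 18 genes of this list with a promoter in the table, a count not split by direction. Hspe1 and Hspd1 are neighbours that share 1 promoter region, shown here on the Hspe1 strand with overlapping matches on both strands in capitals.
Hspe1, chr1:55088049-55088086, plus strand: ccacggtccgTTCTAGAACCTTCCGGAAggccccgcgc

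Few genes of the other protein quality lists passed. All 8 subunits of the TRiC chaperonin, which folds actin and tubulin, had log2 differences below 0 (median −0.22), and 1 passed, beside 0.989% of all genes lower: Cct5 was 0.694 ± 0.0577 in CS and 1.08 ± 0.0836 in RA mice (adjusted p = 0.023). Cct8, Cct7 and Cct3 had adjusted p of 0.0507, 0.0577 and 0.0594, and 5 of 8 passed in the larger cluster, where 1.61% of all genes were lower. In gCap cells 5 of 8 were lower, where 3.97% of all genes were. Over the mice left out the count in aerocytes was 0 to 3, and it was 0 without C2, C5, D5, F3 or M3. All 26 proteasome subunits were below 0 (median −0.13), and 0 passed at an adjusted p under 0.05 while 6 had an unadjusted p under 0.05, near the 24.5% of all genes, and 1 passed without M1. In the smaller cluster, which took the largest shares of aerocytes in F1 and F3, 7 of the 8 TRiC and 24 of the 26 proteasome genes were higher (median log2 differences 0.13 and 0.12). The CS difference had medians of −0.24 and −0.12 in the larger cluster alone and of −0.20 and −0.12 with both clusters given equal weight, where 0 of either list passed. Psmc2, an ATPase of the proteasome cap, was 0.789 ± 0.0615 against 1.19 ± 0.243 (adjusted p = 0.0718), with overlapping groups. Serpinh1, the collagen chaperone HSP47 and the only 1 of 9 basement membrane genes to pass, fell to 0.648 of the RA level (1.73 ± 0.207 against 2.67 ± 0.218, adjusted p = 0.0354, 0.0561 with the lane block), and it lost the call without any 1 CS mouse, F3 or M3.

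**Figure D4:**
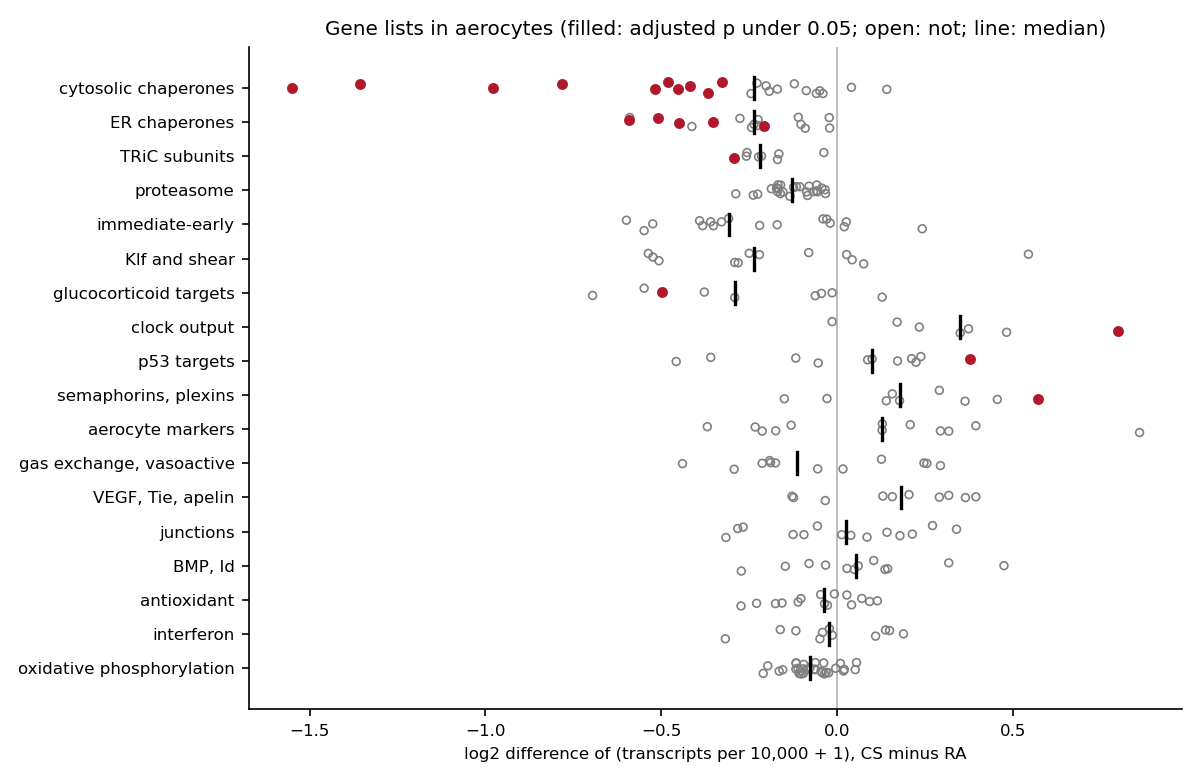
Log2 difference between CS and RA aerocytes for each tested member of the gene lists (points; filled where the adjusted p is under 0.05), with a line at the median of each list. Cytosolic and ER chaperones have medians of −0.24, and the TRiC and proteasome members all lie below 0.

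A further 4 genes of the largest decreases were no chaperones. Tsc22d3, the glucocorticoid-induced leucine zipper GILZ, was 1.80, 1.30, 2.05 and 1.38 in CS and 3.10, 2.27, 2.7 and 2.77 in RA mice (log2 −0.50, adjusted p = 0.0375, 0.0622 with the lane block). It was the 1 of 9 glucocorticoid target genes that passed, beside 0.989% of all genes lower, and 3 of 9 were lower in gCap cells, beside 3.97%. In aerocytes 8 of the 9 were below 0 (median −0.29, beside 0.00 over all genes). In the smaller cluster, with its largest shares in F1 and F3, 6 of the 9 were higher (median log2 difference 0.60). In the larger cluster alone the median CS difference was −0.25, and Tsc22d3 was again the 1 that passed (adjusted p = 0.0255), beside 1.61% of all genes lower. Rin3, an exchange factor for the endosomal GTPase Rab5, fell to 0.587 of the RA level (adjusted p = 0.036, 0.0622 with the lane block), Tubb2a, a beta-tubulin, to 0.439 (0.0475) and the small membrane glycoprotein Smagp to 0.629 (0.036). Tubb2a and Smagp lost the call without any 1 CS mouse, F3 or M3, Tsc22d3 without C2, C5, D5, F3 or M3, and Rin3 without C2, C5, D2, F3 or M3.

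A further 5 genes that fell were picked out after their values were seen and stand for no list. Asns, asparagine synthetase, was 0.474 ± 0.056 in CS and 0.797 ± 0.15 in RA mice (adjusted p = 0.0432). The transfer RNA synthetases Cars (0.295 ± 0.0521 against 0.519 ± 0.0575, adjusted p = 0.0348) and Yars (0.305 ± 0.00982 against 0.465 ± 0.0445, 0.037) fell too, as did the transcription factor Atf5 (0.122 ± 0.0155 against 0.25 ± 0.0537, 0.0398) and the translation repressor Eif4ebp1 (0.335 ± 0.0619 against 0.604 ± 0.110, 0.037). All 5 lost the call without any 1 CS mouse, F3 or M3. With the lane as a block Cars, Yars and Atf5 had adjusted p of 0.0622, 0.0631 and 0.0631.

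Among the genes that rose, Ephx1, the microsomal epoxide hydrolase that detoxifies epoxides of smoke and other chemicals (chromosome 1, 180976210 to 181020904), was 1.96, 2.41, 1.68 and 1.89 in CS and 1.09, 0.981, 0.814 and 0.824 in RA mice. All CS mice were above all RA mice, by 2.14-fold on average (log2 0.63, SE 0.0804, adjusted p = 0.00673), and the call held in every alternative computed. Why Ephx1 differed was not tested. Of the NRF2 and antioxidant genes 0 of 15 had an adjusted p under 0.05, and of the tested aryl hydrocarbon receptor genes 0 of 3. An unadjusted p under 0.05 was found in 3 and 2 (24.5% of all genes). Ahr itself was 3.38, 4.05, 2.55 and 2.69 in CS and 1.01, 2.04, 2.25 and 2.16 in RA mice (log2 0.55, adjusted p = 0.0819).

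Nr1d1 encodes the clock repressor REV-ERBα, whose messenger cycles strongly over the day (chromosome 11, 98767932 to 98775333). It was 2.08, 1.98, 1.22 and 1.14 in C2, C5, D2 and D5 and 0.139, 0.327, 0.655 and 0.902 in F1, F3, M1 and M3. C2 and C5, the CS libraries with Xist, were highest. F1 and F3, the RA libraries with Xist, were lowest. The CS mean was 3.17-fold the RA mean (log2 0.80, SE 0.161, adjusted p = 0.037, 0.0601 with the lane as a block). The call was lost without any 1 CS mouse or F3 (0.0705 to 0.123), with genes in at least 1% of cells (0.0609) and with a pseudocount of 0.1 (log2 1.65, adjusted p = 0.0518). Of the 7 clock output genes tested it was the 1 that passed, beside 0.974% of all genes higher, and 3 passed in the larger cluster, beside 1.43%. Of the 5 tested in gCap cells 4 were higher there, beside 6.28% of all genes. In aerocytes Tef was 0.701 ± 0.230 against 0.329 ± 0.0985 (adjusted p = 0.0624), Nr1d2 0.958 ± 0.194 against 0.519 ± 0.223 (0.0742) and Dbp 0.583 ± 0.452 against 0.105 ± 0.0907 (0.0997).

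Sema6d, a membrane semaphorin that guides cells through plexins, was 1.73, 1.92, 1.90 and 1.30 in CS and 0.541, 0.980, 1.01 and 0.785 in RA mice (log2 0.57, SE 0.0979, adjusted p = 0.0264, lost without C2, C5, D2 or M3). It was the 1 of 9 semaphorin and plexin genes that passed in aerocytes, beside 0.974% of all genes higher, and 3 of 9 were higher in gCap cells, beside 6.28%. Pdgfd, a ligand of the PDGF receptor β of mural cells, was 11, 11.3, 8.76 and 9.64 in CS and 3.96, 6.22, 6.90 and 6.20 in RA mice (log2 0.73, adjusted p = 0.037, 0.0622 with the lane block), and its call was lost without any 1 CS mouse, F3 or M3. F1 was lowest in both genes. Pde4d, which breaks down cyclic AMP, was 2.15, 2.10, 1.56 and 1.14 in CS and 0.472, 0.738, 0.673 and 0.659 in RA mice, 2.73-fold higher (log2 0.73, SE 0.112, adjusted p = 0.0154, lost without C2, C5 or M3 at 0.053 to 0.0592).

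The remaining genes with the largest increases included Exoc4, a subunit of the exocyst that tethers secretory vesicles, at 9.60 ± 1.46 in CS and 5.31 ± 0.790 in RA mice (adjusted p = 0.0287, lost without C2, C5, D5 or M3). Tmtc2, an ER mannosyltransferase, was 19.6 ± 1.95 and 11.2 ± 2.63 (0.037, 0.0684 with the lane block), and Mllt3, a subunit of the super elongation complex, 3.19 ± 0.184 and 1.65 ± 0.605 (0.037, 0.0601 with the lane block). Cacnb2, a calcium channel subunit, was 2.79-fold, Kif26b, a kinesin family member, 2.27-fold, Zfp608 2.13-fold and Mpped2 1.79-fold higher, with adjusted p of 0.037, 0.0475, 0.036 and 0.0358 (Mpped2 0.0608 with the lane block). Except for Exoc4 and Mpped2, these genes lost the call without any 1 CS mouse, F3 or M3, and Mpped2 lost it without C2, C5, D5 or M3. With a pseudocount of 0.1 Cacnb2, Kif26b and Zfp608 had log2 differences of 1.35, 1.16 and 1.10 in place of 0.61, 0.60 and 0.64 and adjusted p of 0.0518, 0.0684 and 0.0543. With both clusters given equal weight Cacnb2 had 0.40 (0.0559).

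Gene span moved with direction. The 67 genes that rose had a median span of 157 kb and the 68 that fell 12.3 kb, beside 30.2 kb over the tested genes with a span. Unspliced transcripts were counted together with spliced ones, and the part of this in the result was not tested.

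Of 11 tested genes of the p53 and stress response, 1 passed, where 1.96% of all genes passed in either direction. Of the 11, 7 lay above 0 and 4 below, with a median log2 difference of 0.10. Cdkn1a was the lowest of them (−0.46, adjusted p = 0.25). Eda2r, a receptor of the TNF receptor family and a p53 target, was 0.494, 0.735, 0.388 and 0.446 in CS and 0.0878, 0.240, 0.225 and 0.107 in RA mice, 3.13-fold higher (log2 0.38, SE 0.0676, adjusted p = 0.0337, lost without C2, C5, D5 or M3). Its groups did not overlap, nor did those of Ccng1 (0.516 ± 0.151 against 0.281 ± 0.0333, adjusted p = 0.0649), Zmat3 (0.489 ± 0.133 against 0.283 ± 0.0359, 0.075) and Sesn1 (1.31 ± 0.0647 against 1.06 ± 0.184, 0.160), beside the 8.71% of all genes with every CS mouse above every RA mouse.

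The 12 genes chosen as aerocyte markers did not pass: 0 of 12 had an adjusted p under 0.05, and 5 of 12 had an unadjusted p under 0.05, beside 24.5% of all genes. All CS mice lay above all RA mice in 3 of the 12 and below in 2, beside 8.71% and 7.1% of all genes. Those above were Kitl, Nckap5 and Clec14a, and those below Car4 and Emp2. Nckap5 and Clec14a were higher in gCap cells than in aerocytes, so their rise does not describe aerocyte identity. Of the genes above, Kitl alone was higher in aerocytes. Car4 was 25.4 ± 0.969 in CS and 29.7 ± 1.49 in RA mice (log2 −0.21, adjusted p = 0.195), Ednrb 17.1 ± 0.741 and 14.1 ± 3.33 (0.266) and Tbx2 8.70 ± 0.962 and 7.86 ± 0.588 (0.465). The lowest p of the list were those of Emp2, 29.4, 30.8, 31.7 and 32.7 in CS and 34.9, 42.5, 39.9 and 45.4 in RA mice (adjusted p = 0.0827), and of Nckap5, 11 ± 0.724 against 6.18 ± 2.83 (0.112). Emp2 passed in the larger cluster (0.0364) and without F1 (0.0131), and Nckap5 passed without F1 (0.0211), whose level of 2.11 was the lowest of the 8 mice.

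Neither did the genes by which capillaries exchange gas and signals. No gene passed (0) among 12 gas exchange and vasoactive genes, 10 VEGF, angiopoietin and apelin genes, 12 BMP genes, 14 junction and adhesion genes and 6 Notch genes. Of these, 3, 2, 3, 5 and 1 had an unadjusted p under 0.05, beside 24.5% of all genes. Of 17 immediate-early genes 0 passed, 4 had an unadjusted p under 0.05 and 14 were below 0 (median −0.31). In the larger cluster alone their median was −0.05. In gCap cells 7 of the 17 were lower, beside 3.97% of all genes. Ramp2, the adrenomedullin co-receptor, was 27.0 ± 3.55 in CS and 36.9 ± 3.91 in RA mice (adjusted p = 0.0785), Kdr 28.3 ± 1.73 and 22.5 ± 6.28 (0.251), and Bmpr2, the BMP receptor, 19.1, 18.3, 19.6 and 20.9 in CS and 10.2, 13.5, 16.9 and 15.1 in RA mice (0.0946, and 0.0442 without M1). Kitl, the ligand of the receptor Kit on gCap cells, was 32, 34.0, 28.7 and 30.8 in CS and 18.2, 27.6, 27.7 and 27.7 in RA mice (0.196).

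The final question was whether the difference between CS and RA mice was itself different in aerocytes and in gCap cells, which the study profiled from the same lungs. In gCap cells 412 genes were higher (6.28%) and 260 lower (3.97%) in CS among 6556 tested, and these comparisons share all 8 mice. There were 9988 gCap cells and 4240 aerocytes, and the aerocyte counts moved with cell number, so these counts do not compare the size of the response. Of the genes called in aerocytes and tested in gCap cells, 25 of 50 higher and 38 of 64 lower passed there in the same direction. The difference of differences, fitted over 7442 genes, passed in 5 (0.0672%), with 840 (11.3%) at an unadjusted p under 0.05.

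Ablim1, an actin-binding LIM protein (chromosome 19, 57032733 to 57314919), was 4.75, 3.68, 4.37 and 4.54 in the aerocytes of C2, C5, D2 and D5 and 4.03, 4.57, 4.77 and 4.00 in those of F1, F3, M1 and M3. In gCap cells it was 5.29, 4.49, 4.77 and 5.73 in the CS and 2.43, 2.96, 3.21 and 2.89 in the RA mice. The groups overlapped in aerocytes and stood apart in gCap cells, and the aerocyte log2 difference was 0.65 below that of gCap cells (−0.65, SE 0.0558, adjusted p = 0.00139 by limma).

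Cdkn1a, the cell cycle inhibitor p21 and a p53 target (chromosome 17, 29090976 to 29100727), was 9.05, 10.2, 9.25 and 9.08 in the CS and 22.9, 15.6, 9.19 and 9.20 in the RA aerocytes. In gCap cells it was 2.76, 3.78, 2.81 and 2.7 in the CS and 16.9, 9.21, 5.86 and 4.97 in the RA mice. In aerocytes M1 and M3 lay within the CS range and the difference of −0.46 did not pass (adjusted p = 0.25), while in gCap cells all RA mice lay above all CS mice (log2 −1.22, adjusted p = 0.0346). The difference between the types was 0.76 (SE 0.0802, adjusted p = 0.00525). F1 and F3, the highest in both types and the RA libraries with Xist, were also the mice with the largest share of the smaller cluster. For Ablim1 and Cdkn1a the call held in the larger cluster, with the lane block and with each mouse left out. The larger-cluster fit restricted the aerocytes only and kept all gCap cells, so it does not remove differences in cell state among gCap cells.

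The other 3 genes were less stable. Agpat4, an acyltransferase of phospholipid synthesis, was 1.83 ± 0.0501 in CS and 2.59 ± 0.204 in RA aerocytes and 1.52 ± 0.0455 and 1.56 ± 0.213 in gCap cells (interaction log2 −0.32, adjusted p = 0.0391). Dcbld1, a membrane protein of unsettled function, was 2.73 ± 0.161 and 1.63 ± 0.267 in aerocytes and 0.456 ± 0.0698 and 0.388 ± 0.0658 in gCap cells (0.44, adjusted p = 0.0391). Fryl was 1.08 ± 0.0451 and 1.09 ± 0.192 in aerocytes and 2.85 ± 0.152 and 1.93 ± 0.342 in gCap cells (−0.41, adjusted p = 0.0391). All 3 lost the call with each mouse left out in turn (adjusted p 0.0514 to 0.165) and with the lane as a block (0.0618 to 0.0804), and Agpat4 also in the larger cluster (0.0701).

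**Figure D5:**
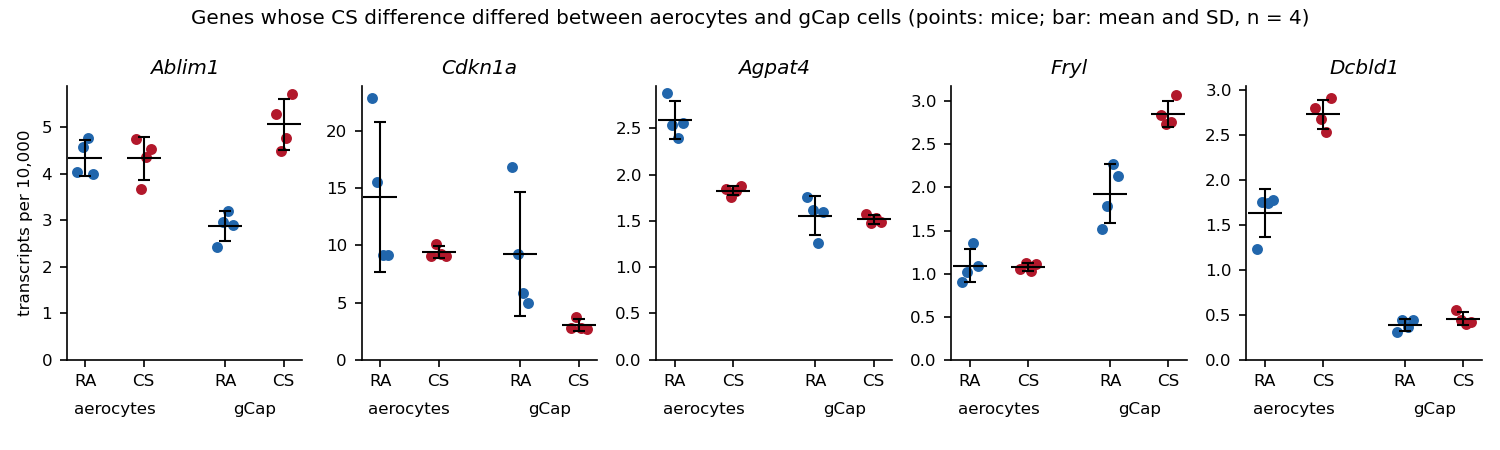
Levels (transcripts per 10,000) of the 5 genes whose CS difference differed between capillary types, in aerocytes and gCap cells of each mouse (points; bars mark the mean and SD of 4 mice). Cdkn1a in CS is 9.05 to 10.2 in aerocytes and 2.7 to 3.78 in gCap cells, and Ablim1 in RA is 4.00 to 4.77 and 2.43 to 3.21.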

How the data were processed

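Libraries were made with the 10x Genomics 3′ v3 kit from polyA RNA. As the study's methods and the submitters' processing notes state, the authors aligned reads with STAR 2.7.3a (STARsolo) to GRCm38.p6 with GENCODE genes, counted spliced and unspliced transcripts by molecular identifier, removed cells with fewer than 1000 transcripts, over 5% mitochondrial or under 7.5% unspliced transcripts, and subtracted free RNA with SoupX, so the deposited matrix holds estimated counts that are seldom whole (0.681% of the aerocyte values). Clusters, cell types and 1025 cells marked as multiplets, left out of the other types here, were taken from the authors' deposited cell table.

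Each cell was scaled to 10,000 transcripts and averaged per mouse. limma 3.58.1 (R 4.3.3; lmFit, eBayes with trend) was fitted to log2(mean + 1), which understates changes of low genes, with no count model and no rounding, over genes in at least 10% of aerocytes of either group. The interaction used the difference of aerocytes and gCap cells per mouse. Exact two-sided permutation tests over mice used all 70 assignments. The study compared groups over single cells with a Wilcoxon test, tried here as an alternative beside other pseudocounts, filters, scalings, cell choices, the sequencing lane as a replicate block (each lane number in the labels is shared by 1 CS and 1 RA library, assumed sequenced together) and each mouse left out. Genes named were the 12 highest and 12 lowest by log2 difference among those that passed without overlap, up to 4 per list by p and those that passed the interaction. The members and gene lists were chosen with earlier results of these data known. Gene spans came from the GENCODE annotation of GRCm38. Nothing states that libraries were repeated within a mouse, so n counts mice. Intervals cover counting error only. Some genes that met these rules are not reported here.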

Additional observations from a re-analysis of the deposited data

Results flagged for a closer look

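Within groups of 4 mice, 8 values lay apart from the other 3 among 170 groups tested with Dixon's ratio, about as many as the 1 in 20 that chance flags. In CS aerocytes these were Calr in C2 (2.21 per 10,000), Manf in D2 (1.32), Klf10 in C2 (0.448) and Icam2 in D2 (20.6). In RA aerocytes they were Atf5 in F3 (0.330) and, in F1, Kitl (18.2), Ahr (1.01) and Dcbld1 (1.23). The 3 values of F1 were each the lowest of the RA group.

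The CS difference differed between aerocytes and gCap cells in 5 genes by the interaction test: Ablim1 by −0.65, Fryl by −0.41 and Agpat4 by −0.32 on the log2 scale, and Cdkn1a by 0.76 and Dcbld1 by 0.44.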

How the results depend on the processing

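Beside 67 genes higher and 68 lower, the counts were 12 and 18 with genes in at least 1% of cells (12587 tested), 107 and 125 with summed transcripts, 33 and 31 with the sequencing lane as a replicate block, 27 and 23 with 249 aerocytes per mouse, 27 and 40 without the 10% of aerocytes richest in non-endothelial markers, and 923 and 761 with the Wilcoxon test over single cells, where cells of 1 mouse count as replicates. Equal weight of both clusters gave 110 higher and the larger cluster alone 111 lower. Median centring gave 71 and 58. With 1 mouse left out, 4 to 224 were higher and 8 to 184 lower. Of the 41 named genes that passed in aerocytes, 0 changed direction in these alternatives. With both clusters given equal weight Cars, Atf5, Eif4ebp1, Cct5 and Agpat4 also lost the call (adjusted p 0.0731, 0.0899, 0.0588, 0.0537 and 0.0806).

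The interaction gave 1 gene in each direction with a pseudocount of 0.1, with genes in at least 25% of cells (3916 tested), with the lane block and with each mouse left out (1 to 1), where 2 were higher and 3 lower. The differences in share stayed short of the test, at 1.77 to 5.75 and 2.46 to 4.46 percentage points with 1 mouse left out. The sign-flip test within lanes, which cannot go below 0.125, says nothing on their stability (p = 0.5 and 0.125, exact). The cause of these shifts was not tested. With 4 mice a group, low transcripts per cell limit precision for genes under 1 per 10,000.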

Other observations

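Of the Kruppel-like factors, Klf2 and Klf4 answer blood flow in endothelium. In aerocytes 0 of 12 tested genes of the Kruppel-like factor and shear list passed. An unadjusted p under 0.05 was found in 8, beside 24.5% of all genes. In the larger cluster alone 2 of 12 were lower, Klf6 (log2 −0.47, adjusted p = 0.0467 by limma) and Klf10 (−0.26, 0.033), beside 1.61% of all genes. Klf10 also passed without F1 (0.0051) and had an adjusted p of 0.0921 in all aerocytes. Klf4 was 12.6, 8.04, 11.6 and 11.4 in CS and 18.1, 18.4, 12.6 and 15.8 in RA mice (log2 −0.54, adjusted p = 0.0889 by limma, 0.0406 without M1). Klf2 was 13.7, 9.50, 16 and 13.7 in CS and 22.4, 19.7, 15.3 and 19.9 in RA mice (−0.52, adjusted p = 0.0982, 0.0493 without M1). Klf3 was 2.4 ± 0.137 and 3.05 ± 0.25 (adjusted p = 0.093, 0.0453 without F1). Of these, the groups did not overlap in Klf3. It was the 1 of 12 with all CS mice below all RA mice, beside 7.1% of all genes. In 1 of 12 all CS mice lay above all RA mice, beside 8.71%. The log2 differences of 8 of the 12 were below 0 and those of 4 above (median −0.24).

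Antigen presentation and interferon genes did not pass in aerocytes either (0 of 13 MHC class I and 0 of 11 interferon genes, with 3 and 3 at an unadjusted p under 0.05, beside 24.5% of all genes). H2-D1, a class I heavy chain whose reads near-identical genes can share, was 15.6, 15.1, 20.2 and 20.4 in CS and 23.6, 26.3, 25.2 and 26.4 in RA mice (log2 −0.50, adjusted p = 0.0649, 0.0283 without F1). Of 31 nuclear genes of oxidative phosphorylation 0 passed and 26 were below 0, with a median of −0.08 and 2 at an unadjusted p under 0.05. All 31 were higher in the smaller cluster, which took the largest shares of aerocytes in F1 and F3 (median log2 difference 0.22).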
